A study of Mus musculus with 70 samples.

Results

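Major histocompatibility complex (MHC) class II presentation was followed through 8 genes in cells sorted from B16F10 melanomas: H2-Aa, H2-Ab1, H2-Eb1, Cd74, H2-DMa, H2-DMb1, H2-Oa and Ciita. They were taken by symbol from the gene count tables, which list 55487 named genes, and all 8 were present in each table. Of these, 7 had enough counts to be tested in CD45+ cells, 6 in CD45- cells, and H2-Oa was below the count filter in both fractions.

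C57BL/6 mice aged 6 to 8 weeks at purchase bore subcutaneous tumors of B16F10, a transplantable melanoma line of the same strain, in each flank, and a single tumor per mouse received sham ablation or partial histotripsy, in which focused ultrasound breaks tissue apart mechanically. Control tumors came from sham-ablated mice, histotripsy-treated tumors were the ablated ones, and histotripsy-abscopal tumors were the untreated ones on the opposite flank. Tumors were dissociated 3 or 7 days later and flow-sorted by CD45, the surface protein of blood-derived cells encoded by Ptprc, so that CD45+ libraries hold a mixture of immune cells and CD45- libraries hold melanoma cells with stroma. RNA was measured by QuantSeq, which counts transcripts at the 3′ end, in 36 CD45- libraries (4 control, 7 histotripsy-treated and 7 histotripsy-abscopal from day 3, then 11, 3 and 4 from day 7) and in 34 CD45+ libraries (4, 6 and 7 from day 3, then 10, 3 and 4 from day 7).

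Class II molecules carry peptides from endocytosed proteins to CD4+ T cells, and dendritic cells, macrophages and B cells are their main producers. H2-Aa and H2-Ab1 encode the alpha and beta chains of I-A, H2-Eb1 the beta chain of I-E, and Cd74 the invariant chain that occupies the groove until H2-DM, made of the H2-DMa and H2-DMb1 or H2-DMb2 products, exchanges it for peptide. H2-O, whose alpha chain is H2-Oa, restrains H2-DM, and Ciita encodes the transcriptional coactivator that the class II genes depend on and that interferon gamma can induce in cells that do not normally present through class II.

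The depth was between 887798 and 3820705 counts per library, and levels are given as CPM, the count divided by the library's total and multiplied by 1e+06. Ptprc had 0 to 3 counts in each CD45- library and 929 to 2916 in each CD45+ library. Summed over 7 melanoma markers (Pmel and Mlana among them), CD45- libraries held 23400 to 36890 CPM and CD45+ libraries 91.5 to 2278 CPM, the highest being day 3 histotripsy-abscopal replicate 4. Fibroblast markers (7 genes, collagens among them) ranged from 17.3 to 13360 CPM over the CD45- libraries, and neutrophil markers (7 genes) from 375 to 26700 CPM over the CD45+ libraries, the highest in day 3 histotripsy-treated replicate 3.

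In GRCm38, 6 of the 8 genes lie within the MHC on chromosome 17, at 34092340-34095234 (H2-Oa), 34119541-34139101 (H2-DMa), 34153072-34160230 (H2-DMb1), 34257689-34269419 (H2-Ab1), 34282744-34287823 (H2-Aa) and 34305867-34316674 (H2-Eb1). H2-Aa is on the minus strand and the others are on the plus strand. Ciita lies on chromosome 16 at 10480059-10528418. Class II promoters are known for an X box bound by the RFX complex and a Y box bound by NF-Y, on which the Ciita product assembles, so the promoters of the genes that moved together were searched for a loose form of the X box followed after 15 to 30 bases by ATTGG on either strand. The pattern was present in 226 of 32851 RefSeq promoters (0.688%; 250 bases before to 50 after each start), while the X-box form alone was in 38.7% and ATTGG alone in 37.4%. Among the 5 genes with a RefSeq promoter at hand, H2-Eb1 and H2-DMb1 held the pattern and H2-Aa, H2-DMa and H2-Oa did not. Of 16 other class II pathway genes with a promoter, H2-Ob and H2-Eb2 held it. The following 50-base stretches (RefSeq, GRCm38.p6, 5′ to 3′ along the gene's strand) end in ATTGG, with the fixed letters of each match in capitals, and show H2-Eb1 and H2-Ob, which held the pattern, beside H2-Aa, which had ATTGG without the X-box form at that distance.
H2-Eb1, chr17:34305763-34305812, plus strand: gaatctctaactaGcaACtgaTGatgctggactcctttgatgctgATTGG
H2-Ob, chr17:34238803-34238852, plus strand: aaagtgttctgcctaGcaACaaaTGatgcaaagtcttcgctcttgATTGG
H2-Aa, chr17:34287867-34287916, minus strand: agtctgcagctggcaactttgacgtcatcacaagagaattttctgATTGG
The gap between the parts was 22 bases in H2-Eb1 and 20 in H2-Ob. A match is a description of these letters and was not tested as a site.

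All 7 tested genes were higher in CD45+ than in CD45- cells in all 3 groups on both days, by 3.69 to 8.68 on the log2 scale. The 42 comparisons were called by edgeR's quasi-likelihood test at an adjusted p under 0.05, and in each of them the lowest CD45+ library lay above the highest CD45- library. The fractions differ broadly: the share of all tested genes called higher in CD45+ cells was 34.5%, 39.9% and 39.8% on day 3 (control, histotripsy-treated, histotripsy-abscopal) and 42.1%, 34.3% and 35.9% on day 7. The share whose CD45+ libraries all lay above all CD45- libraries was 27.6%, 21% and 23.4% on day 3 and 22.1%, 31.1% and 25.6% on day 7. The 8 genes together took 0.394% to 1.38% of the counts of a CD45+ library and 0.00110% to 0.0190% of those of a CD45- library. In bulk RNA from sorted cells, more cells of a class II positive type and more class II RNA per cell cannot be told apart.

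**Figure D1:**
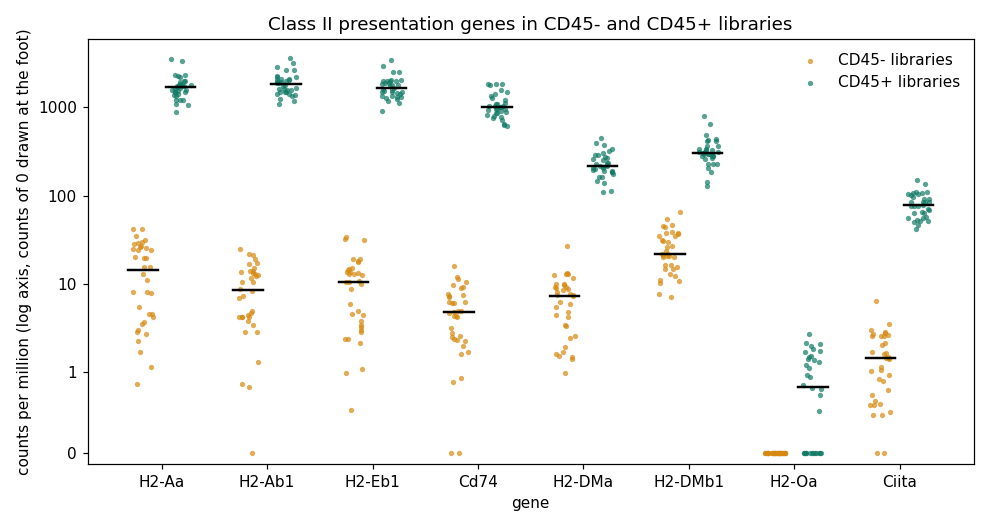
Level of each gene in CPM (log axis, counts of 0 drawn at the foot) in the 36 CD45- libraries (orange) and 34 CD45+ libraries (green), 1 point per library, with the median as a bar where most libraries had counts. The clouds of 7 genes are apart, H2-Oa is near 0 in both fractions, and H2-DMb1 is the highest of the genes in CD45- cells (median 21.8 CPM) but not in CD45+ cells.

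The classical chains were the most abundant of the 8 genes in CD45+ cells. H2-Aa ranged from 882 to 3522 CPM over the CD45+ libraries (median 1691) and from 0.732 to 42.1 CPM over the CD45- libraries (median 14.2). In control tumors on day 7 its mean was 1782 ± 313 CPM (SD, n = 10) in CD45+ and 15.4 ± 12.9 CPM (SD, n = 11) in CD45- cells, a log2 difference of 7.08 (SE 0.360, adjusted p = 1.80e-20). H2-Ab1 ranged from 1106 to 3615 CPM in CD45+ (median 1859) and from 0 to 24.9 CPM in CD45- libraries (median 8.47), with a log2 difference of 8.02 (SE 0.290, adjusted p = 2.52e-25) between the same control groups. H2-Eb1 ranged from 904 to 3417 CPM in CD45+ (median 1652) and from 0.366 to 34.3 CPM in CD45- libraries (median 10.4), with a log2 difference of 7.83 (SE 0.303, adjusted p = 2.30e-24). The 3 chains thus lay within a narrow band of each other in CD45+ cells, where their medians were 1652 to 1859 CPM. H2-Ea, the alpha chain that pairs with H2-Eb1 to form I-E, is defective in the H2-b haplotype of C57BL/6 mice, and its gene had 0 to 10 counts per CD45+ library (93 in all, against 102719 for H2-Eb1) and 0 to 4 per CD45- library (44 against 896).

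Cd74, the invariant chain, lies on chromosome 18 at 60803848-60812652 (GRCm38). It ranged from 621 to 1841 CPM in CD45+ (median 1016) and from 0 to 15.9 CPM in CD45- libraries (median 4.71). Its log2 difference between the fractions in day 7 control tumors was 8.02 (SE 0.302, adjusted p = 8.93e-25), and 8.34 (SE 0.413, adjusted p = 1.16e-19) in day 3 histotripsy-treated tumors. Cd74 had no counts in 2 CD45- libraries.

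The H2-DM genes stood apart less. H2-DMa ranged from 109 to 446 CPM in CD45+ (median 217) and from 0.97 to 26.9 CPM in CD45- libraries (median 7.30), with a log2 difference of 5.47 (SE 0.244, adjusted p = 2.48e-22) in day 7 control tumors. H2-DMb1 ranged from 129 to 796 CPM in CD45+ (median 302) and from 6.97 to 65.4 CPM in CD45- libraries (median 21.8), with a log2 difference of 3.93 (SE 0.215, adjusted p = 1.88e-19). H2-DMb1 had counts in all 36 CD45- libraries, at 18 to 145 per library. Its neighbour H2-DMb2, which encodes the other H2-DM beta chain, had at most 1 count in any CD45- library and 33.1 to 111 CPM in CD45+ libraries. The H2-DMb genes share sequence, and near the 3′ end, where QuantSeq reads start, the 101-base windows of H2-DMb1 that also occur in H2-DMb2 were 0, 14 and 41 of the 300 in the last 400 bases of its 3 annotated transcripts. H2-DMa overlaps other annotated genes, 1 of them on its own strand, and the strand setting of the counting is not given in the sources used here.

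The order of the genes differed between the fractions. Counts from 3′ ends do not scale with transcript length. Shared sequence and overlapping genes can still affect them gene by gene, so levels of different genes compare only roughly. In CD45+ cells H2-Aa, H2-Ab1 and H2-Eb1 had the highest mean CPM in all 6 groups, followed by Cd74, H2-DMb1, H2-DMa, Ciita and H2-Oa, and the 3 chains overlapped between libraries. In CD45- cells H2-DMb1 had the highest mean in all 6 groups and H2-Aa the next. H2-DMb1 exceeded H2-Ab1 in 35 of 36 CD45- libraries and in 0 of 34 CD45+ libraries, and the H2-DMb1 to H2-Ab1 ratio of summed counts was 2.91 in CD45- and 0.177 in CD45+ cells.

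Set against CD45+ cells, the CD45- level (mean over libraries of CPM) was 0.899% for H2-Aa, 0.492% for H2-Ab1, 0.618% for H2-Eb1, 0.476% for Cd74, 1.92% for Ciita, 3.04% for H2-DMa and 7.96% for H2-DMb1. The same share was 0.00921% for Ptprc, 0.0183% for the neutrophil gene S100a8, 0.270% for the macrophage gene Csf1r and 0.0479% for H2-Ob, the beta chain of H2-O. The share was 2.90% for the macrophage gene Cd68 and 2.33% for Irf8, above those of H2-Aa, H2-Ab1, H2-Eb1, Cd74 and Ciita. These 7 class II genes were thus present in CD45- libraries at a larger share of their CD45+ level than Ptprc. That did not hold against every immune gene, and the measure was described and not tested. The monocyte and macrophage markers (11 genes) summed to 0.841 to 12.4 CPM in CD45- libraries, with 7 of them at no more than 3 counts in any library, and the conventional dendritic cell markers (9 genes) to 28.9 to 83.9 CPM, with Flt3, Clec9a, Cd209a, Ccr7 and Itgax at no more than 3 counts. The B cell markers (7 genes) summed to at most 106 CPM, with 6 of them at no more than 3 counts.

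H2-Oa and Ciita had the fewest counts. H2-Oa had 0 counts in all 36 CD45- libraries and 0 to 5 counts in CD45+ libraries (50 in all, 13 libraries at 0). With a floor of 3 counts per library it could not be compared between the fractions, and no fold is given. Its partner H2-Ob had 33 to 186 counts in each CD45+ library and at most 1 in any CD45- library. Ciita ranged from 41.8 to 149 CPM in CD45+ (median 78.0) and from 0 to 6.31 CPM in CD45- libraries (median 1.42, at most 12 counts in a library). Its log2 difference was 5.64 (SE 0.212, adjusted p = 8.84e-25) in day 7 control tumors and 6.76 (SE 0.503, adjusted p = 3.03e-14) in day 3 control tumors. Ciita passed the count filter only in fits that hold CD45+ libraries. In the annotation H2-Oa overlaps BC051537, Ciita Dexi and H2-Eb1 Gm20513, each on the other strand, and Cd74 overlaps Mir5107 on its own strand. With the strand setting not given, whether reads of these genes were lost to the overlaps was not tested.

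The comparison of histotripsy with sham asked whether class II genes changed in ablated or in distant tumors. None of the tested class II genes passed edgeR's test at an adjusted p under 0.05 in any of the 12 treatment comparisons, and DESeq2 called 0 as well. At an unadjusted p under 0.05 there were 4 genes for histotripsy-treated and 6 for histotripsy-abscopal against control in CD45+ cells on day 7, 2 for histotripsy-abscopal against control and 1 for histotripsy-treated against histotripsy-abscopal in CD45- cells on day 7, and 0 in the other 8 comparisons. The share of all tested genes called was small in most of these comparisons. At an adjusted p under 0.05 and in CD45+ cells it was 7.79% (histotripsy-treated against control), 0% (histotripsy-abscopal against control) and 5.44% (histotripsy-treated against histotripsy-abscopal) on day 3, and 0% in each on day 7. In CD45- cells it was 0.0916%, 0% and 0.147% on day 3, and 0%, 0.291% and 0% on day 7, in the same order. The share with an unadjusted p under 0.05 was 23.9%, 7.76% and 18.7% on day 3 and 3.15%, 7.45% and 2.69% on day 7 in CD45+ cells, and 10.6%, 5.19% and 13.5% on day 3 and 6.08%, 9.56% and 6.74% on day 7 in CD45- cells. Both histotripsy groups of a table were compared with the same control libraries.

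**Figure D2:**
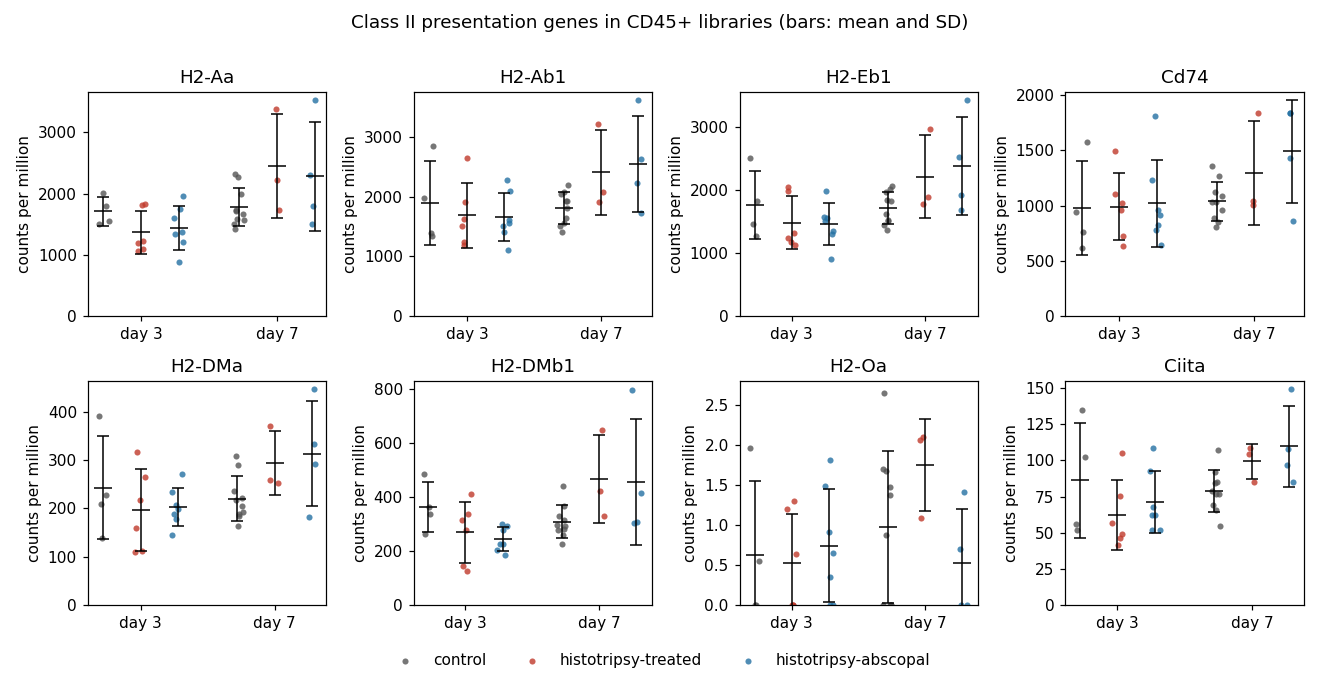
CPM of each gene in CD45+ libraries by day and group, 1 point per library, with mean and SD as bars (n = 4, 6 and 7 on day 3 and 10, 3 and 4 on day 7 for control, histotripsy-treated and histotripsy-abscopal). On day 7 the highest histotripsy-treated and histotripsy-abscopal library of each gene except H2-Oa lies above all 10 control libraries, while the lowest lies among them.

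In CD45+ cells on day 7 all 7 tested genes had higher fitted levels in histotripsy-treated and in histotripsy-abscopal than in control tumors, but the libraries overlapped and no difference passed the test. H2-Ab1 was between 1412 and 2200 CPM in the 10 control libraries (median 1867), at 3218, 1905 and 2083 CPM in histotripsy-treated replicates 1 to 3 and at 3615, 2632, 1730 and 2219 CPM in histotripsy-abscopal replicates 1 to 4. Of these, 1 of 3 histotripsy-treated and 3 of 4 histotripsy-abscopal libraries lay above every control. The log2 difference from control was 0.40 (SE 0.186, adjusted p = 0.9999) for histotripsy-treated and 0.53 (SE 0.167, adjusted p = 0.531) for histotripsy-abscopal tumors.

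H2-Aa was between 1426 and 2329 CPM in controls (median 1691), at 3386, 1742 and 2223 CPM in histotripsy-treated and at 3522, 2307, 1795 and 1504 CPM in histotripsy-abscopal libraries, of which only replicate 1 of each exceeded every control. H2-Eb1 was between 1361 and 2069 CPM in controls (median 1722), at 2961, 1891 and 1770 CPM in histotripsy-treated and at 3417, 2519, 1681 and 1912 CPM in histotripsy-abscopal libraries. The log2 differences from control were 0.45 (SE 0.207) and 0.39 (SE 0.188) for H2-Aa and 0.36 (SE 0.190) and 0.51 (SE 0.170) for H2-Eb1, in the order histotripsy-treated and histotripsy-abscopal.

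Cd74 was between 806 and 1358 CPM in controls (median 1035), at 1840, 1009 and 1041 CPM in histotripsy-treated and at 1841, 1835, 858 and 1430 CPM in histotripsy-abscopal libraries. Histotripsy-abscopal replicates 1, 2 and 4 lay above every control, while histotripsy-treated replicates 2 and 3 lay near the control median. The log2 differences were 0.31 (SE 0.209) and 0.56 (SE 0.187). Without histotripsy-treated replicate 1 the first of these was -0.025, so its direction rested on that library, and without histotripsy-abscopal replicate 1 the second was 0.47.

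H2-DMa was between 163 and 308 CPM in controls (median 212), at 370, 259 and 252 CPM in histotripsy-treated and at 446, 334, 183 and 291 CPM in histotripsy-abscopal libraries. H2-DMb1 was between 229 and 443 CPM in controls (median 297), at 648, 329 and 424 CPM in histotripsy-treated and at 796, 414, 309 and 304 CPM in histotripsy-abscopal libraries, and only replicate 1 of each lay above every control. Ciita was between 55.0 and 107 CPM in controls (median 78.0), at 108, 85.4 and 104 CPM in histotripsy-treated and at 149, 96.8, 85.1 and 108 CPM in histotripsy-abscopal libraries. All 7 histotripsy libraries of both groups lay above the control median of Ciita and of H2-DMb1. The log2 differences for histotripsy-treated and histotripsy-abscopal tumors were 0.42 (SE 0.201) and 0.55 (SE 0.181) for H2-DMa, 0.59 (SE 0.224) and 0.58 (SE 0.203) for H2-DMb1, and 0.33 (SE 0.171) and 0.51 (SE 0.155) for Ciita.

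Over the 7 genes the median log2 difference was 0.40 for histotripsy-treated tumors, where the median of all tested genes was -0.01, and 0.53 for histotripsy-abscopal tumors, where it was also -0.01. Without replicate 1 of the group compared, the differences ranged from -0.025 (Cd74) to 0.28 (H2-DMb1) for histotripsy-treated and from 0.13 (H2-Aa) to 0.47 (Cd74) for histotripsy-abscopal tumors, where H2-DMb1 was at 0.21. The adjusted p was 0.9999 for each gene in the first comparison and 0.504 to 0.666 in the second. The highest library of each gene was replicate 1 in both groups, and these 2 libraries had the lowest neutrophil marker sums of day 7, 711 CPM (histotripsy-treated) and 483 CPM (histotripsy-abscopal) against 1595 to 5029 CPM in controls. Their monocyte and macrophage marker sums were 3136 and 3999 CPM against 1908 to 2914 CPM in controls. Histotripsy-treated replicate 3 (3621 CPM) and histotripsy-abscopal replicates 2 and 4 (2997 and 2943 CPM) also lay above all controls in that sum. Conventional dendritic cell sums of the replicate 1 libraries were 748 and 720 CPM, and 677 CPM in histotripsy-treated replicate 2, against 438.5 to 607.8 CPM in controls. The part of cell composition in the class II values was not tested.

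**Figure D3:**
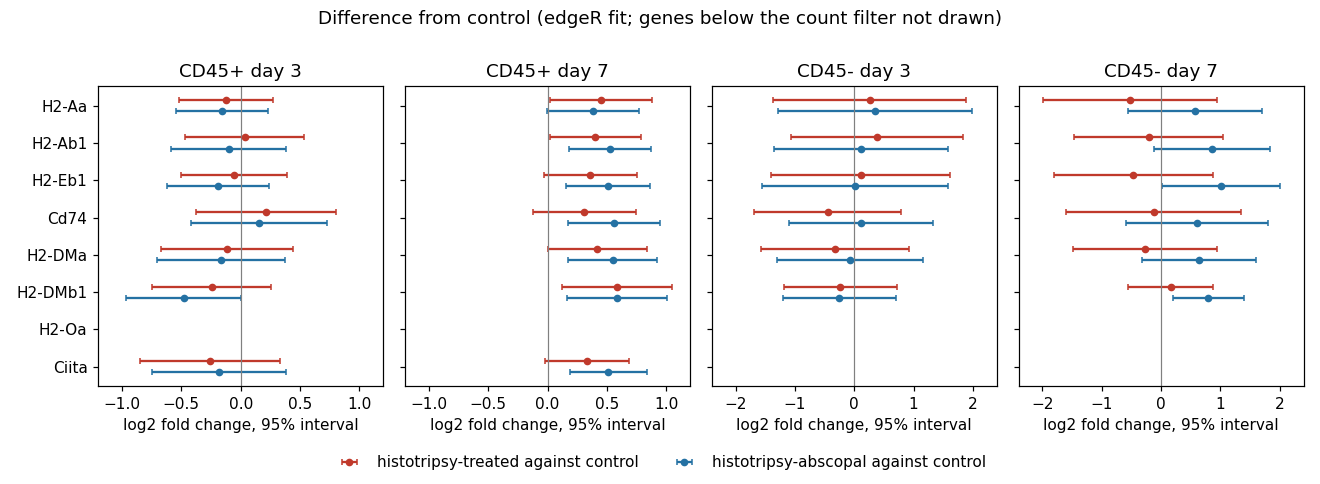
Log2 fold change from control with its 95% interval (edgeR) for each gene that passed the count filter, for histotripsy-treated (red) and histotripsy-abscopal (blue) tumors in 4 panels for fraction and day. All 7 estimates lie above 0 in CD45+ cells on day 7 in both groups, from 0.31 to 0.59, while on day 3 they lie between -0.48 and 0.21, and intervals are wide in CD45- cells.

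On day 3 most class II genes of CD45+ cells had fitted levels slightly below control, 5 of 7 in histotripsy-treated and 6 of 7 in histotripsy-abscopal tumors, with none called. The differences from control ranged from -0.26 to 0.21 on the log2 scale over the 7 genes for histotripsy-treated tumors (median -0.12, adjusted p 0.581 to 0.956) and from -0.48 to 0.16 for histotripsy-abscopal tumors (median -0.16, adjusted p 0.645 to 0.937). The sum of H2-Aa, H2-Ab1, H2-Eb1 and Cd74 was 8930, 6544, 5173 and 4723 CPM in control replicates 1 to 4, 4015 to 7994 CPM in histotripsy-treated (median 5054, n = 6) and 3535 to 7449 CPM in histotripsy-abscopal libraries (median 5456, n = 7). Control replicate 1 was thus above all libraries of both other groups. The lowest of the differences was that of H2-DMb1 in histotripsy-abscopal tumors (-0.48), where 0 of 7 libraries lay above the control median. Neutrophil marker sums were 375 to 2786 CPM in control and 1315 to 26700 CPM in histotripsy-treated libraries, and their part in these values was not tested.

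Between day 3 and day 7 all 7 tested class II genes of CD45+ cells had higher fitted levels in both histotripsy groups, and 2 of 7 had in controls (H2-Aa and Cd74), with none called. In histotripsy-abscopal tumors the log2 differences (day 7 minus day 3) were 0.63 (SE 0.193) for H2-Aa, 0.60 (SE 0.208) for H2-Ab1, 0.69 (SE 0.194) for H2-Eb1 and 0.52 (SE 0.246) for Cd74. They were 0.61 (SE 0.236) for H2-DMa, 0.86 (SE 0.234) for H2-DMb1 and 0.62 (SE 0.230) for Ciita. H2-DMb1 was at 187 to 300 CPM on day 3 (median 228, n = 7) and at 304 to 796 CPM on day 7 (n = 4), with a gap between the days of only 300.1 to 303.5 CPM. Of all tested genes 1.42% were likewise higher on day 7 without overlap. H2-Eb1 was at 904 to 1988 CPM on day 3 and 1681 to 3417 CPM on day 7, with 2 of 4 day 7 libraries above all of day 3. None passed edgeR's test (adjusted p 0.0653 to 0.315; 0.747% of all tested genes were called), all 7 had an unadjusted p under 0.05, as did 14.6% of all tested genes, and DESeq2 called H2-Eb1 (log2 0.68, adjusted p = 0.0470) and H2-DMb1 (log2 0.85, adjusted p = 0.0409). Without day 7 replicate 4 edgeR called H2-DMb1 (log2 0.9955, adjusted p = 0.0460), whereas without day 7 replicate 1 its difference was 0.48 (adjusted p = 0.565) and that of H2-Aa 0.37.

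In histotripsy-treated tumors the day 7 minus day 3 difference was 0.67 (SE 0.217, adjusted p = 0.0668) for H2-Aa, which was at 1060 to 1832 CPM on day 3 (n = 6) and 1742 to 3386 CPM on day 7 (n = 3). It was 0.64 (SE 0.263, adjusted p = 0.158) for H2-DMb1, 0.52 (SE 0.259) for Ciita, 0.44 (SE 0.266) for H2-DMa, 0.41 (SE 0.220) for H2-Eb1, 0.35 (SE 0.235) for H2-Ab1 and 0.23 (SE 0.279) for Cd74. Of these, 2 had an unadjusted p under 0.05, 0 were called by edgeR or DESeq2, while 4.14% of all tested genes were called and 19.5% had an unadjusted p under 0.05. Without day 7 replicate 1 the difference was 0.38 for H2-Aa (adjusted p = 0.507), 0.35 for H2-DMb1, 0.25 for H2-DMa, 0.16 for H2-Eb1, 0.098 for H2-Ab1 and -0.096 for Cd74. H2-Aa was called without day 7 replicate 2 (log2 0.85, adjusted p = 0.0430) and when libraries were scaled by their totals (log2 0.84, adjusted p = 0.0354). In control tumors the differences ranged from -0.21 to 0.12 (adjusted p 0.987 to 0.9999; 0.00889% of all genes called), with 0 of the 7 at an unadjusted p under 0.05 (5.01% of all genes) and 0 by DESeq2.

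A test of the difference between days in the effect of histotripsy called none of the 7 genes in CD45+ cells. The interaction ranged from 0.41 to 1.07 for histotripsy-abscopal tumors (6 genes with an unadjusted p under 0.05, adjusted p 0.638 to 0.888; of all genes 0% called and 6.48% with an unadjusted p under 0.05) and from 0.11 to 0.85 for histotripsy-treated tumors (2 genes with an unadjusted p under 0.05, adjusted p 0.200 to 0.927; 2.68% called and 15.8% unadjusted), and DESeq2 called 0 in both. The days were deposited as separate tables, so day and any handling particular to a table cannot be told apart. Markers of other cell types moved between the days too. In histotripsy-abscopal tumors Adgre1 (log2 1.18, adjusted p = 0.0131), C1qa (1.09, adjusted p = 0.0363), Mrc1 (1.596, adjusted p = 0.0251) and Itgax (0.74, adjusted p = 0.0229), genes of macrophages and dendritic cells, were higher on day 7, and their part in the class II differences was not tested.

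In CD45- cells the class II genes varied widely between libraries of the same group, and no treatment difference passed the test. The sum of H2-Aa, H2-Ab1, H2-Eb1 and Cd74 ran from 1.83 to 109 CPM over the 36 libraries, a 59.3-fold range that both ends of the day 3 histotripsy-treated group set (replicates 4 and 6). The same sum spanned 3.51-fold over the CD45+ libraries. It was 23.5 to 49.6 CPM in day 3 control, 5.32 to 107 CPM in day 3 histotripsy-abscopal and 4.73 to 78.2 CPM in day 7 control libraries. In day 7 histotripsy-treated replicates it was 13.97, 13.86 and 61.0 CPM.

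**Figure D4:**
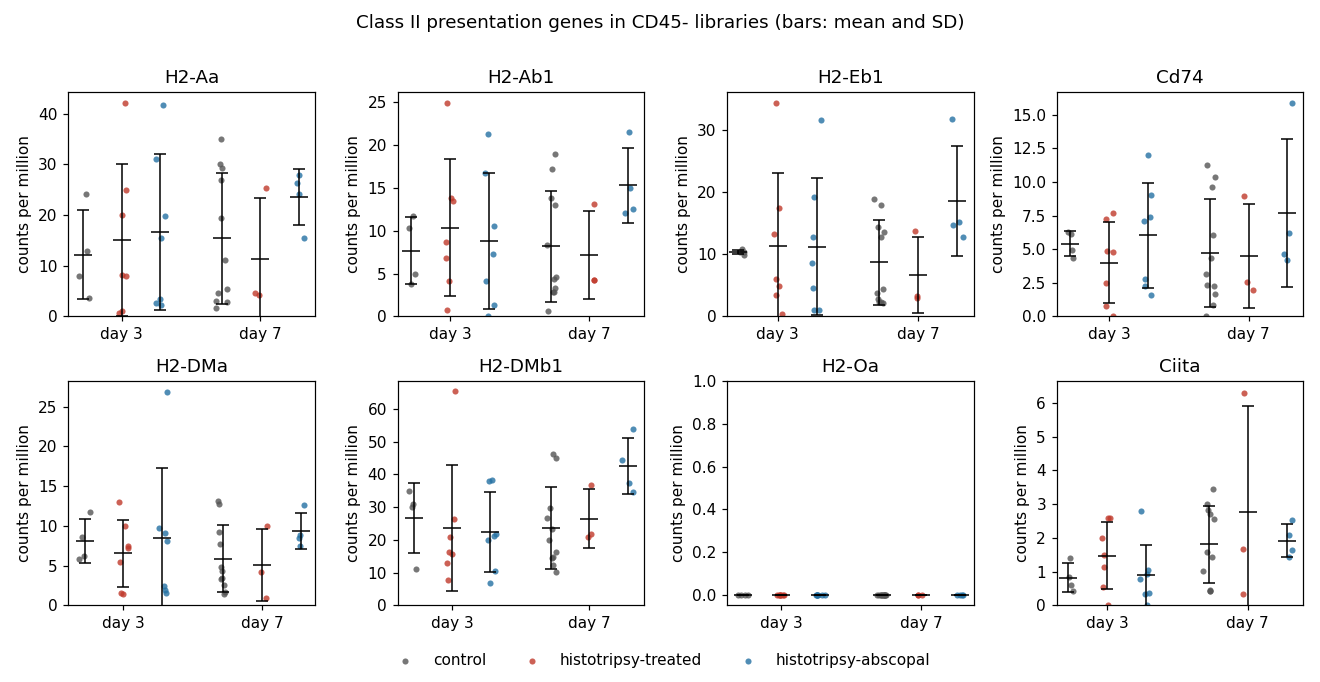
CPM of each gene in CD45- libraries by day and group, 1 point per library, with mean and SD as bars cut at 0 (n = 4, 7 and 7 on day 3 and 11, 3 and 4 on day 7 for control, histotripsy-treated and histotripsy-abscopal). The groups overlap, and the 4 day 7 histotripsy-abscopal libraries lie in the upper part of the control range for most genes.

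In the day 7 histotripsy-abscopal libraries the same sum was 59.8, 47.4, 55.9 and 97.1 CPM in replicates 1 to 4, all above the control median of 23.0 CPM. H2-DMb1 was at 34.8, 37.4, 44.5 and 54.0 CPM in these libraries and at 10.1 to 46.2 CPM in the 11 controls (median 19.8), so that all 4 lay above the control median and 1 above every control. Its log2 difference was 0.79 (SE 0.288, p = 0.0113 unadjusted in edgeR, adjusted p = 0.319). H2-Eb1 was at 14.6, 15.1, 12.8 and 31.7 CPM against 2.10 to 18.9 CPM in controls (median 4.37), with a log2 difference of 1.005 (SE 0.481, adjusted p = 0.519). H2-Ab1 was at 14.96, 12.6, 12.1 and 21.6 CPM against 0.676 to 19.0 CPM (median 4.59), a log2 difference of 0.86 (SE 0.471, adjusted p = 0.578). All 4 libraries of H2-Aa, H2-DMa and Cd74 also lay above their control medians, with log2 differences of 0.57 (SE 0.544), 0.64 (SE 0.463) and 0.61 (SE 0.581) and adjusted p-values of 0.684 to 0.781. The Cd74 difference rested on replicate 4, without which it was 0.095.

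Over the 6 genes the median difference was 0.72 on the log2 scale, against -0.01 for all tested genes. The pericyte and fibroblast gene Pdgfrb was called higher in these libraries (log2 2.34, adjusted p = 0.0282), and fibroblast marker sums were 72.9 to 2497 CPM against 17.3 to 698 CPM in controls. When libraries above 1000 CPM of fibroblast markers were left out, an alternative chosen after seeing the data, the 6 differences ranged from 0.70 (H2-DMa) to 1.22 (H2-Eb1), with a median of 0.96 and adjusted p-values of 0.539 to 0.776. The other CD45- differences from control ranged from -0.45 to 0.39 (histotripsy-treated) and -0.25 to 0.35 (histotripsy-abscopal) on day 3 and from -0.52 to 0.17 (histotripsy-treated) on day 7. Between histotripsy-treated and histotripsy-abscopal tumors they ranged from -0.56 to 0.28 on day 3, and on day 7 all 6 were below 0, from -1.47 (H2-Eb1) to -0.63 (H2-DMb1), with adjusted p-values of 0.734 to 0.882. Without day 7 histotripsy-treated replicate 3 the H2-Aa difference was -1.73 from control (adjusted p = 0.767) and -2.30 from histotripsy-abscopal tumors (adjusted p = 0.321). Between CD45+ and CD45- cells the effects of histotripsy differed by -1.06 to 0.98 over the genes, days and groups, and edgeR called none of these interactions (0 with an unadjusted p under 0.05, 0 by DESeq2). Over all genes these interactions were called for 1.92% (histotripsy-treated) and 0% (histotripsy-abscopal) on day 3 and for 0% and 0.0233% on day 7, with 16.1%, 5.74%, 4.84% and 8.94% at an unadjusted p under 0.05.

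Between the days no class II gene of CD45- cells was called by edgeR or DESeq2. The log2 differences (day 7 minus day 3) ranged from -0.50 to 0.30 in control, -0.82 to 0.21 in histotripsy-treated and 0.21 to 0.84 in histotripsy-abscopal tumors, with 0, 0 and 1 of the 6 genes at an unadjusted p under 0.05. Of all genes 0%, 0.0433% and 0.026% were called, and 4.35%, 7.46% and 10% had an unadjusted p under 0.05. The interaction of day and treatment ranged from -0.76 to 0.42 for histotripsy-treated and from 0.23 to 1.05 for histotripsy-abscopal tumors. Neither DESeq2 nor edgeR called a class II gene in it, and 0 had an unadjusted p under 0.05. Over all genes 0% and 0.00866% were called, and 6.02% and 6.87% had an unadjusted p under 0.05.

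Within CD45- cells the class II genes varied together from library to library. After removal of group means, log2 CPM of pairs of the 7 genes correlated at r = 0.55 to 0.93 on day 3 and 0.63 to 0.95 on day 7 (18 libraries each, genes of the same library sharing its depth and cell mixture). Among 8063 genes, those most like the mean of H2-Aa, H2-Ab1, H2-Eb1 and Cd74 were Gbp7 (r = 0.95 on day 3 and 0.94 on day 7), Ifi47 (0.91 and 0.93), Irf8 (0.93 and 0.90), Tapbp (0.90 and 0.90), Igtp (0.92 and 0.90), Tap1 (0.91 and 0.90), Irf9 (0.89 and 0.93) and Ifitm3 (0.89 and 0.89). Gbp7, Ifi47 and Igtp encode interferon-inducible GTPases, Irf8 and Irf9 interferon regulatory factors, and Tap1 and Tapbp parts of the class I peptide-loading machinery. This ranking in CD45- cells was added after seeing the data.

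Irf1, an interferon-induced transcription factor, had r = 0.84 and 0.76 with the class II mean, and Ciita had 0.74 and 0.72. The library with the least class II RNA, day 3 histotripsy-treated replicate 4 (1.83 CPM, 5 counts), had 7.32 CPM of Gbp7 and 9.88 CPM of Irf1. Replicate 6 of the same group (109 CPM, 209 counts) had 118 and 114 CPM. The same mean had r = 0.04 and -0.21 with Ptprc, which had 0 counts in 31 of the 36 CD45- libraries. That r rests on 7 counts in all and says little about immune cells. For the monocyte and macrophage sum r was 0.15 and 0.54, and for the conventional dendritic cell sum -0.02 and -0.03. For the B cell sum, with 6 of 7 genes at no more than 3 counts in any library, r was 0.30 and 0.60. It was 0.22 and 0.51 with the fibroblast sum, -0.20 and -0.23 with the melanoma sum and -0.19 and -0.27 with the library total. These are descriptions over libraries, without a test.

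**Figure D5:**
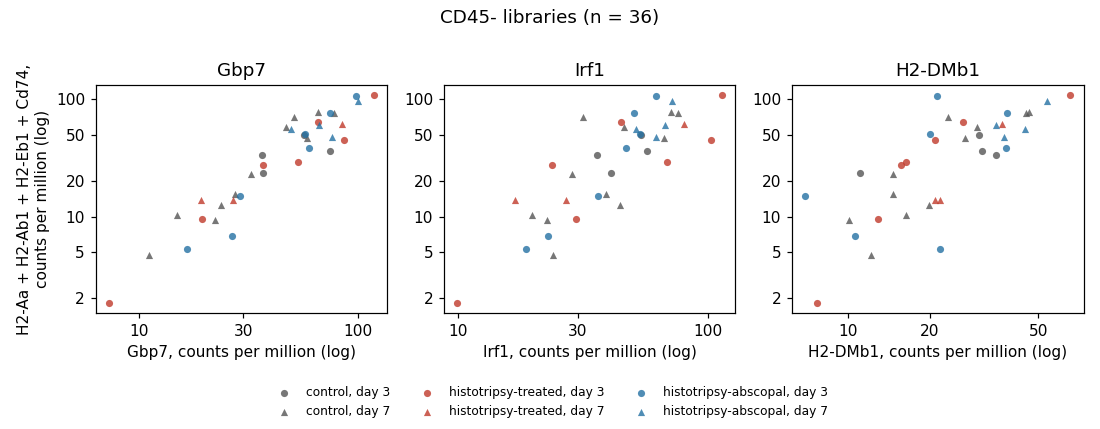
Sum of H2-Aa, H2-Ab1, H2-Eb1 and Cd74 against Gbp7, Irf1 and H2-DMb1 in the 36 CD45- libraries, in CPM on log axes, coloured by group and shaped by day. Libraries low in the class II sum (down to 1.83 CPM) are low in Gbp7 and Irf1, and each group spreads along the same band.

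In CD45+ cells the class II genes also varied together, with r = 0.48 to 0.93 between pairs on day 3 and 0.40 to 0.96 on day 7 (17 libraries each), but with other genes. The 8 most similar of 7989 genes were Syngr2 (r = 0.86 on day 3 and 0.89 on day 7), Pak1 (0.81 and 0.84), Tmem176a (0.80 and 0.83), Ppfia4 (0.79 and 0.78), Naaa (0.78 and 0.91), Tmem176b (0.78 and 0.84), Nrros (0.78 and 0.75) and Ckb (0.90 and 0.75). Irf1 had r = -0.15 and -0.01 there, and Gbp7 0.46 and -0.22. The class II mean of CD45+ libraries had r = -0.65 and -0.59 with the neutrophil sum, 0.66 and 0.58 with the monocyte and macrophage sum and 0.50 and 0.75 with the conventional dendritic cell sum. Whether the correlations differ between the fractions was not tested.

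Other genes of the pathway were often called between the fractions, as were genes at large, and seldom between treatments. Of 20 listed class II pathway genes in the tables (H2-DMb2, H2-Ob, the RFX and NF-Y subunits, lysosomal proteases and costimulatory molecules among them), 19 were tested between the fractions in day 7 control tumors, of which 15 were higher and 2 lower in CD45+ cells, with a median log2 difference of 2.82 against 0.05 for all genes. In the other groups and on day 3, 11 to 13 were higher and 1 lower. Of all tested genes 42.1% were called higher and 38.3% lower in day 7 control tumors. In the other groups and on day 3 these shares were 34.3% to 39.9% and 30.6% to 37%. Ctss, the protease that trims the invariant chain, was at 1975 ± 210 CPM (SD, n = 10) in CD45+ and 0.987 ± 0.891 CPM (SD, n = 11) in CD45- cells. Marchf1, a ubiquitin ligase that removes class II from the surface, was at 48.8 CPM and 0.149 CPM, and the costimulatory gene Cd86 at 107 CPM and 0 counts. The 2 lower genes, named after their values were seen, were Marchf8 (22.2 CPM in CD45+ against 85.7 CPM in CD45- cells) and Rfxap (13.6 against 20.3 CPM), a subunit of the RFX complex.

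In day 7 control tumors 42.1% of all tested genes were called higher in CD45+ cells. In the other 5 fraction comparisons 34.3% to 39.9% were. Of 9 listed genes on the route from interferon gamma to Ciita all 9 were higher in CD45+ cells in the same control comparison (median log2 difference 3.56), and 8 or 9 in the other 5 fraction comparisons. Among them were Spi1 (212 CPM against 0.556 CPM), Ifngr1 (533 against 31.6 CPM), Jak1 (566 against 143 CPM) and Jak2 (113 against 21.4 CPM). Ifng had no counts in these CD45- control libraries. In the 12 treatment comparisons edgeR called 0 of these 9 genes (0 to 3 with an unadjusted p under 0.05 in a comparison) and 1 of the other class II pathway genes, the costimulatory gene Cd80, which was higher in histotripsy-treated than in histotripsy-abscopal CD45+ cells on day 3 (log2 0.89, SE 0.188, adjusted p = 0.00681). Over the 12 comparisons 0% to 7.79% of all tested genes were called and 2.69% to 23.9% had an unadjusted p under 0.05. For the comparison with the Cd80 call these shares were 5.44% and 18.7%. Cd80 fell by 0.84 on the log2 scale (adjusted p = 0.0436) between day 3 and day 7 in histotripsy-treated CD45+ cells, over the same interval in which the 7 class II genes had differences of 0.23 to 0.67. Irf8, a transcription factor of macrophages and dendritic cells, had a called day interaction for histotripsy-treated CD45+ cells (log2 0.71, SE 0.197, adjusted p = 0.0411).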

How the data were processed

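RNA was measured in CD45+ and CD45- cells sorted from B16F10 tumors of the control and both histotripsy groups on days 3 and 7. The authors sequenced QuantSeq 3′ libraries and deposited raw counts per gene, not normalized, in a table for each fraction and day. The submitters' processing notes name bcl2fastq, Trim Galore 0.5.0, STAR 2.6.0, featureCounts and GRCm38, and the methods add collapsing of unique molecular identifiers. The strand setting is not given in the sources used here. A line without a gene name in each CD45+ table (1 per table) was left out, and 0 columns lacked a sample.

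Counts were tested in R 4.3.3 with edgeR 4.0.16 (TMM factors, filterByExpr with a minimum count of 10 and total of 15, quasi-likelihood test, Benjamini-Hochberg adjustment over all tested genes, threshold 0.05), with a term per group in a fit of each table and in joint fits of both fractions of a day or both days of a fraction. The fits held 10921 and 10996 genes (CD45-, days 3 and 7), 10264 and 10817 (CD45+), 12392 and 12863 (fractions) and 11548 and 11251 (days, CD45- and CD45+). Scripts were tested on simulated data. Intervals are at the 95% level, and log2 CPM for correlations used a prior count of 2.

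The 8 genes and the gene lists were chosen with earlier results of these data known. All 8 are named throughout, other pathway genes where called (up to 4 with the smallest p per list and comparison) or where a result turns on them, and the genes most like the class II mean by the smaller r of both days. The labels do not say that replicates of a group came from separate mice, so p-values measure the spread between these samples. The paper's legend for the day 3 CD45- sequencing gives fewer mice per group than the 7 libraries of each histotripsy group. In 208 pairs of libraries of a group the smallest chi-square per degree of freedom was 2.088, so none was counted as a duplicate. Counts limit precision in CD45- cells, where a library held 5 to 222 counts of the classical chains and Cd74 together.

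Replicate numbers recur between groups without a stated meaning. The fractions also hold unequal numbers of libraries, 7 CD45- and 6 CD45+ in day 3 histotripsy-treated and 11 and 10 in day 7 control tumors. The numbers may thus be shifted between groups. Of 24 pairs of groups, deviations of same-numbered libraries correlated above 0.1 in every pair in 2, histotripsy-treated with histotripsy-abscopal CD45+ libraries on day 7 (r = 0.116 to 0.422, 3 pairs) and the fractions of day 7 histotripsy-abscopal tumors (r = 0.163 to 0.386, 4 pairs), and the replicate block was run as an alternative. Other alternatives were DESeq2 1.42.0, scaling by library totals, all genes kept whatever their counts, fits that hold the 2 groups compared alone and each replicate left out in turn. Leaving out libraries rich in fibroblast, melanoma or neutrophil markers and the ranking in CD45- cells were added after seeing the data. Coordinates are from GENCODE and promoters from RefSeq, both on GRCm38. Some listed genes are not reported here.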

Additional observations from a re-analysis of the deposited data

Results flagged for a closer look

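Of 68 sets of a gene and a group with 4 to 10 libraries, 5 held a library far from the rest, and about 5% are expected to by chance. All 5 were in CD45- cells, where counts were low. H2-DMb1 was at 65.4 CPM in day 3 histotripsy-treated replicate 6, with the next library at 26.3 CPM. H2-DMa was at 26.9 CPM in day 3 histotripsy-abscopal replicate 6, with the next at 9.68 CPM, and Ciita at 2.79 CPM (8 counts) in replicate 5 of the same group, with the next at 1.05 CPM. In day 7 histotripsy-abscopal replicate 4, H2-Eb1 was at 31.7 CPM (next 15.1 CPM) and Cd74 at 15.9 CPM (next 6.18 CPM).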

How the results depend on the processing

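Under 579 alternatives of the 32 comparisons the number of class II genes called stayed as reported in 570, and of 3834 gene values 0 lost a call, 12 gained one and 183 took the other sign without being called. The 7 calls in each fraction comparison held under every alternative run. Without a filter on low counts H2-DMb1 alone was called in CD45- histotripsy-abscopal against control on day 7 (1 gene, log2 0.80, adjusted p = 0.00425) and in the CD45+ day interactions of both histotripsy groups (1 gene each), and 2 genes were called in each CD45+ day 7 against day 3 comparison (H2-DMb1 with H2-Aa in histotripsy-treated and with H2-Eb1 in histotripsy-abscopal tumors). For histotripsy-treated CD45+ cells, day 7 against day 3, library totals gave 1 call (H2-Aa), and leaving out a replicate gave 0 to 1 (1 without day 7 replicate 2). For histotripsy-abscopal cells DESeq2 gave 2, and leaving out a replicate gave 0 to 1 (1 without day 7 replicate 4). With a replicate left out, the Cd74 log2 difference in CD45+ cells ran from -0.025 to 0.46 for histotripsy-treated against control on day 7 and from -0.10 to 0.37 for histotripsy-treated day 7 against day 3, both lowest without day 7 replicate 1. In CD45+ cells on day 7 replicate 1 of each histotripsy group raised all 7 differences from control. H2-Aa was 0.15 and H2-DMb1 0.28 without it in treated, and 0.13 and 0.21 in abscopal tumors. The causes were not tested.

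The replicate block changed no call of a class II gene. Under it the day 7 minus day 3 difference of H2-DMb1 in histotripsy-abscopal CD45+ cells was 0.68 (adjusted p = 0.163) and its difference from control on day 7 was 0.31 (adjusted p = 0.637). Over the 105 same-numbered pairs r was -0.41 to 0.62, with 47 above 0.1. Equal numbers need not mark the same mouse, so neither the block nor these pairs can settle the pairing.

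Counts over all genes moved more. Histotripsy-treated against control in CD45+ cells on day 3 had 800 genes called, 338 to 1112 with a replicate left out, 1244 without the filter and 1256 with the block; treated against abscopal had 558, and 275 to 861. In CD45- cells on day 3 the counts were 10 (1 to 17, 312 without the filter, 49 by DESeq2) and 16 (0 to 99, 451 and 138), and on day 7 histotripsy-abscopal against control had 32 (1 to 136, 398 and 11, 0 with the block). Day 7 against day 3 in CD45+ cells had 84 (0 to 105, 273 without the filter, 160 by DESeq2) in abscopal tumors, and 49 to 494 with a replicate left out in treated ones. Another scaling moved the median of all genes by up to 0.42 on the log2 scale between fractions and 0.22 between treatments.

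CD45- values rest on few counts, and Ciita and H2-Oa could not be compared between treatments there. With 3 or 4 day 7 histotripsy libraries a single library moved most differences.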
